A study of Homo sapiens with 6 samples.

Results

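Histone genes were examined in the human myeloma line MM.1S, an established cell line, after knockdown of PRMT1. PRMT1 is the main type I protein arginine methyltransferase, and an arginine in the N-terminal tail of histone H4 is among its substrates. Members were the protein-coding genes whose names begin with HIST1H to HIST4H, or with H2AF, H1F or H3F. This rule took 87 of the 58735 genes listed, of which 71 with HIST names were classed as replication-dependent and 16 as variant. The class was set by name alone, so the 71 include the testis genes HIST1H2AA and HIST1H2BA, and HIST4H4, which has no cluster around it. RNA sequencing (RNA-seq) covered 3 control libraries from MM.1S cells transfected with si-NC and 3 libraries from cells in which PRMT1 was knocked down with si-PRMT1 (PRMT1 KD). The siRNA was used at 100 nM and the cells were collected 72 h after transfection. No other agent or genetic change was named for either group, and both were 1 cell line, so p-values measure the spread between these libraries.

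Replication-dependent histone genes lie in clusters and are transcribed mainly in S phase, when newly made DNA has to be packed into nucleosomes. Their mRNAs usually have no introns and end in a short stem-loop, which is bound by the stem-loop binding protein SLBP, in place of a poly(A) tail. Variant histone genes are scattered through the genome, many but not all contain introns, and their polyadenylated mRNAs are made throughout the cell cycle. H2A and H2B genes often stand in head-to-head pairs and share the DNA between their start sites. The core histones H2A, H2B, H3 and H4 form the nucleosome particle, and the linker histone H1 binds where DNA enters and leaves it.

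The stem-loop carries the distinction between the classes, so it is shown here for the 2 genes that passed the test, HIST2H2BE and HIST1H2AC, and for genes whose stem or loop differs from theirs. The lines give the sense strand from 5′ to 3′ as in GENCODE release 29 on GRCh38, with the 6 bases of each stem arm in capitals around the 4-base loop. The stem-loops shown lie at chr1:149886188-149886203 on the minus strand for HIST2H2BE, chr6:26124669-26124684 on the plus strand for HIST1H2AC and chr6:27133515-27133530 on the plus strand for HIST1H2AG. Those of HIST1H3G, HIST1H4H and HIST1H4I lie on chromosome 6 at chr6:26270923-26270938 (minus), chr6:26285131-26285146 (minus) and chr6:27139654-27139669 (plus). That of H2AFX lies at chr11:119094898-119094913 on the minus strand. All are in the 3′ untranslated region.
HIST2H2BE: ccaaaGGCTCTtttcAGAGCCacccaccta
HIST1H2AC: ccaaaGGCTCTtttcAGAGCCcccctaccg
HIST1H2AG: ccaacGGCTCTtttcAGGGCCacccacgtc
HIST1H3G: aaaaaGGCTCTtttaAGAGCCgcctacttt
HIST1H4H: ccaaaGGCCCTtttcAGGGCCgcccacttt
HIST1H4I: aaaaaGGCCCTttttAGGGCCcctaagctt
H2AFX: acaaaGGCCCTtttaAGGGCCaccaccgcc

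The stem differed by histone type. The stem of all 8 H4 genes with a stem-loop read GGCCCT and AGGGCC, with the loop tttc in 5 genes and tttt in 3. The stem of the H2A, H2B and H3 genes read GGCTCT and AGAGCC, apart from HIST1H2AG, whose second arm was that of the H4 genes and pairs through a G-U pair. The loop tttc followed the first arm in 17 of the H2A, H2B and H3 genes with this stem, tttt in none, ttta in 5 and tctc in HIST1H3E. H2AFX, which encodes H2A.X, was the 1 variant gene with a stem-loop, and its stem was that of the H4 genes. A stem-loop of this consensus was found in an annotated transcript of 32 of the 71 replication-dependent genes (45.1%), 1 of the 16 variant genes (6.25%) and 31 of the 19835 other protein-coding genes (0.156%). For 33 of the other 39 replication-dependent genes the model held the coding sequence alone, so a stem-loop past it could not be found.

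The promoters of the H2A and H2B genes share an octamer, ATTTGCAT, which is bound by POU-domain factors such as POU2F1. The octamer was searched on both strands from 250 bases before to 50 bases after each start site in RefSeq (GRCh38.p14), in which 75 of the 87 genes were matched. It was found at 14 of 18 H2B genes (77.8%), 11 of 14 H2A genes of the HIST clusters (78.6%), 1 of 10 H3 genes (10%), 0 of 13 H4 genes and 0 of 6 H1 genes. The H3 gene was HIST1H3D, whose RefSeq window, chr6:26199394-26199423 on the minus strand, was also that of the H2A gene HIST1H2AD. Among 27305 genes with a RefSeq promoter, 2.19% held it. Among the 14 variant genes matched, H3F3B had it. The octamer is shown in capitals for HIST2H2BE and HIST1H2AC and for the H2B gene with the highest level. The windows lie at chr1:149886710-149886739 on the minus strand for HIST2H2BE, chr6:26124031-26124060 on the plus strand for HIST1H2AC and chr6:27146886-27146915 on the minus strand for HIST1H2BK.
HIST2H2BE: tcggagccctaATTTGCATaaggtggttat
HIST1H2AC: tgggcagagctATGCAAATgaggtatgaaa
HIST1H2BK: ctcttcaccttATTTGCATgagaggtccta

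The letters CCAAT, searched in the same way, were at all matched H1, H2A, H2B and H3 genes of the clusters and at 3 of 13 H4 genes (23.1%). By class, they were at 83.6% of the replication-dependent genes and 85.7% of the variant genes, against 39.7% of all genes. TATAAA, searched on the sense strand alone, was at 57.4% of the replication-dependent genes, 28.6% of the variant genes and 8.99% of all genes. None of these 3 motifs contains another, and a match is a description of the letters and not of binding.

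PRMT1 itself was 61.7, 62.8 and 58.9 FPKM (fragments per gene, divided by gene length and library size) in the control libraries, and 13.3, 14.0 and 12.5 FPKM in the PRMT1 KD libraries. The groups were well apart, and the PRMT1 KD mean was 21.7% of the control mean (log2 difference -2.13, SE 0.0552, limma adjusted p = 2.77e-05). The libraries held 14439217 to 16465026 reads on genes, worked back from FPKM and gene length. Of these, 0.195% to 0.203% lay on the histone genes, in each library within this range. All 10 plasma cell markers had a mean FPKM of at least 1, with SDC1 at 51.1 and XBP1 at 274 FPKM. The T cell, myeloid, erythroid, stromal and endothelial markers had a mean FPKM under 1, with the exception of CD3E at 35.8 FPKM.

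Variant genes made up most of the summed histone FPKM. The RNA selection is not named for these libraries, so this cannot be read as their share of all histone mRNA. Of the 16 variant genes 7 had a mean FPKM of at least 1, against 21 of the 71 replication-dependent genes. The 28 genes were the ones tested, and each of them had a mean of at least 1 FPKM in both groups. The 16 variant genes summed to 624 ± 25.5 FPKM (SD, n = 3 libraries) in the control cells and the 71 replication-dependent genes to 331 ± 7.36 FPKM (SD, n = 3). By histone type, variant genes held 89.0% ± 0.0998 of the summed H2A FPKM in the control cells (SD, n = 3), 95.4% ± 0.795 of the H3 FPKM and 65.9% ± 0.897 of the H1 FPKM. The naming rule found no variant H2B or H4 gene.

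H2AFZ, which encodes H2A.Z, a variant of promoters and enhancers, had the highest level, with a mean of 227 FPKM over the 6 libraries. It was followed by H1FX, a linker histone, at 162 FPKM. HIST1H1C (linker histone H1.2) and HIST1H2BK were next at 101 FPKM each, with HIST1H1C the lower in the 3 control libraries and the higher in the 3 PRMT1 KD libraries. H2AFX followed at 90.0 FPKM, then H3F3A at 62.2 and H3F3B at 49.7 FPKM, the pair of genes that encode the same H3.3 protein. HIST1H2AC at 24.1, H2AFV (a second gene of the H2A.Z family) at 23.2 and HIST2H2BE at 20.2 FPKM came next. Except for H2AFY (macroH2A1, found on silent chromatin), at 8.65 FPKM, the other 17 genes tested were replication-dependent, from HIST1H2BD at 16.6 down to HIST2H4B at 1.11 FPKM.

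The threshold on mean FPKM ran through a group of close values. Just above it lay HIST1H2BN at 1.64, HIST2H3D at 1.25 and HIST2H4B at 1.11 FPKM. Just under it were HIST1H2BF at 0.970, HIST1H4E at 0.913 and HIST2H2BF at 0.900 FPKM. Of the 59 genes under it, 36 had a value above 0 in at least 1 library and 23 were listed at 0 in all 6. Among the latter, HIST1H2AD and HIST1H3D share 98% and 100% of their 50-base stretches with AL031777.3, so a 0 may not be their measured level. The genes listed at 0 included H1F0, the linker histone of resting and differentiated cells, HIST1H1B, and the testis genes HIST1H2AA and HIST1H2BA. The oocyte linker histone H1FOO was at 0.00798 FPKM and H2AFJ at 0.326 FPKM.

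**Figure D1:**
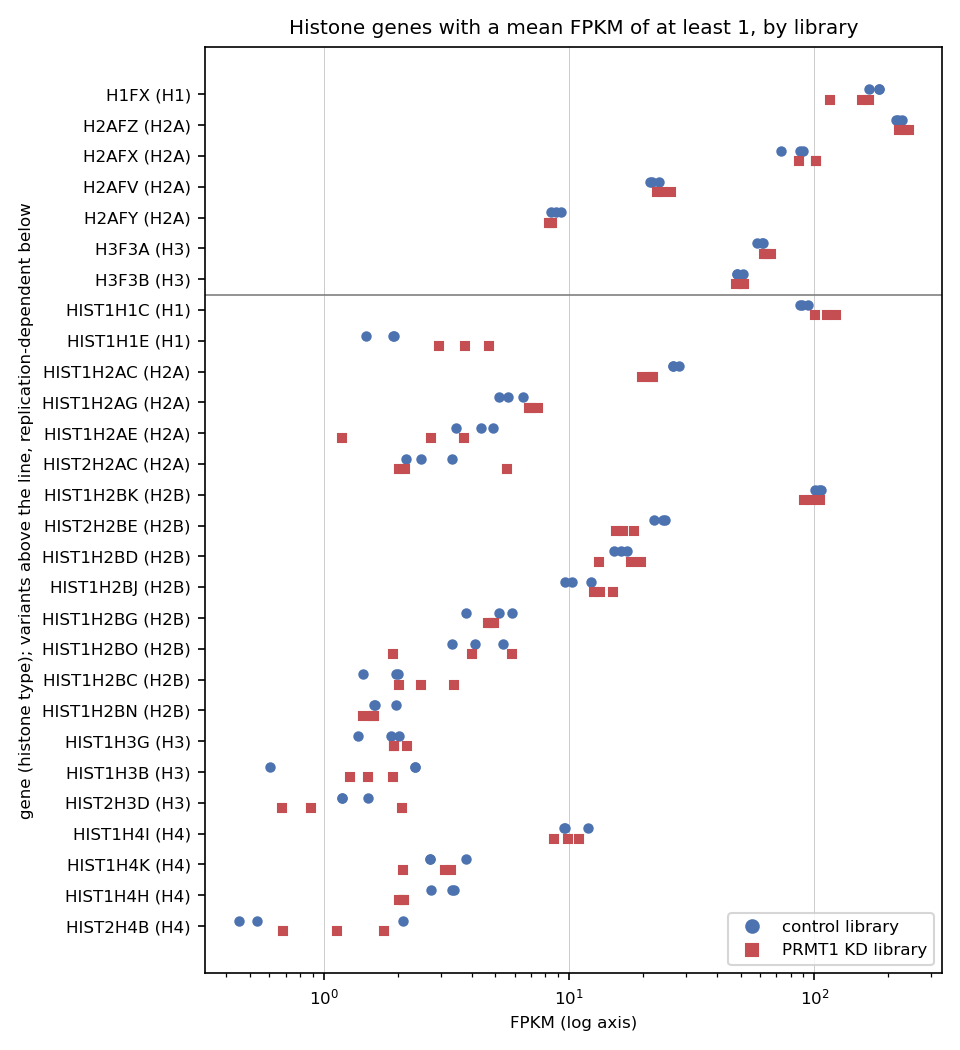
FPKM (log axis) of the 28 histone genes tested, in the 3 control libraries (circles) and the 3 PRMT1 KD libraries (squares), with variant genes above the line and replication-dependent genes below it. H2AFZ and H1FX were above 100 FPKM in all libraries, whereas the replication-dependent H3 genes were all under 3 FPKM.

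The annotated transcripts fell into 3 kinds. In 23 replication-dependent genes the annotated transcript ran at least 100 bases past the stem-loop, in 9 it ended closer to it, and in 39 no stem-loop was in the annotated transcripts. For 33 of these 39, the model held the coding sequence alone. A mean FPKM of at least 1 was reached by 10 of the 23 extended genes (43.5%), 2 of the 9 ending close (22.2%) and 9 of the other 39 (23.1%), against 7 of the 16 variant genes (43.8%). The median of the mean FPKM was 0.913 for the extended genes, 0.245 for those ending close and 0.0815 for the others. HIST2H2BE ran 1729 bases past its stem-loop, HIST1H2AC 1128, HIST1H4H 1655, HIST1H2AG 1761 and H2AFX 1044 bases. A poly(A) signal (AATAAA or ATTAAA in the last 50 bases) was at 23 of the 71 replication-dependent genes (32.4%) and 14 of the 16 variant genes (87.5%), and at 84.2% of all protein-coding genes. Of the 48 replication-dependent genes without the signal, 33 had a model of the coding sequence alone, which leaves out the region where it would lie. High levels were not confined to the genes counted as extended. The models of HIST1H1C and HIST1H2BK, both at 101 FPKM, held the coding sequence alone, so they do not show where the mRNA ends. HIST1H2BD (16.6 FPKM) had 2 annotated transcripts, and a transcript with the stem-loop ended close to it. HIST1H2BJ (12.2 FPKM) had 3 annotated transcripts, none with a stem-loop. Both of these genes had a poly(A) signal in an annotated transcript, so neither stands for genes with only short transcripts ending at the stem-loop. FPKM divides by the length of the model, so levels of genes with and without untranslated regions in the model are not on an equal footing.

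Capture of poly(A) RNA is described for the m6A libraries of the study, which were not analysed here. For the RNA-seq libraries the same text gives the isolation of total RNA and leaves the later steps to a company, without naming a selection, so the levels cannot be read as the amount of all histone mRNA. Of 10 RNAs known to lack a poly(A) tail, RN7SK, which holds back transcription elongation, RMRP, the RNA of RNase MRP, and 6 others were listed at 0 in all libraries, and RNU4-1 was at 0.0716 FPKM. RN7SL2, of the signal recognition particle, was at 915, 545 and 2200 FPKM in the control libraries and at 893, 634 and 337 FPKM in the PRMT1 KD libraries. Its values varied more within the groups than between them.

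**Figure D2:**
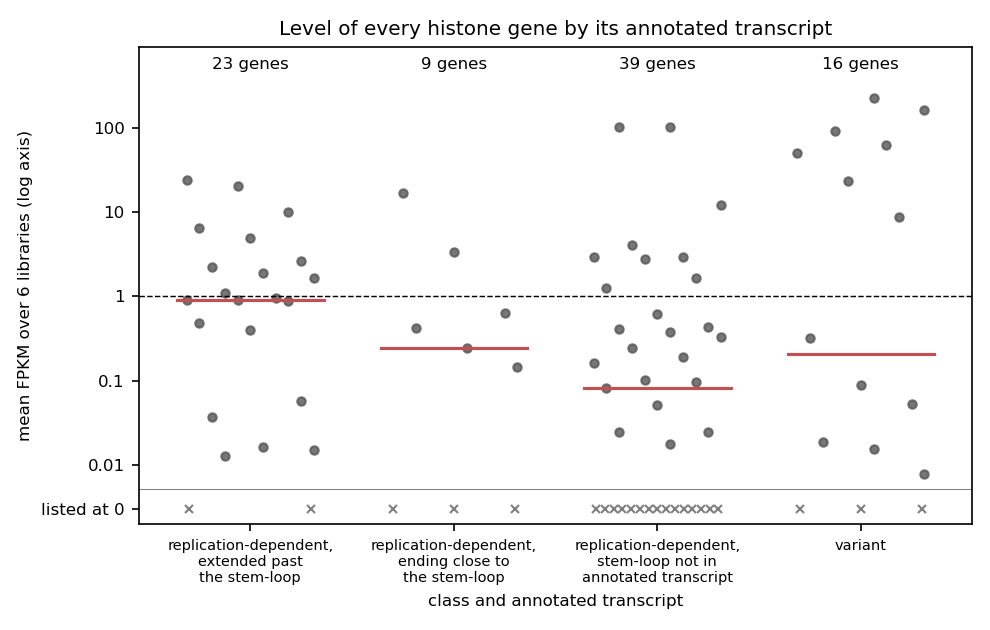
Mean FPKM over 6 libraries (log axis) of all 87 histone genes by class and annotated transcript; red lines are medians, the dashed line is 1 FPKM and crosses are genes listed at 0. Among replication-dependent genes, those extended past the stem-loop had the highest median (0.913 FPKM), and 15 of the 39 without a stem-loop in the model were at 0.

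HIST2H2BE and HIST1H2AC, 2 histone genes of the clusters, fell in PRMT1 KD cells. Both are replication-dependent genes whose annotated transcripts run far past the stem-loop. None of the 28 genes tested passed the test as higher, and none of the 7 variant genes passed it in either direction. HIST1H1E had a PRMT1 KD mean of 214% of the control mean and missed the threshold by little (limma adjusted p = 0.0517). With an adjusted p under 0.05 (limma with Benjamini-Hochberg adjustment over 13585 genes), 2 of 28 histone genes (7.14%) were called, against 2.05% of all genes tested. Both were lower, and none was higher, against 0.986% lower and 1.07% higher of all genes. voom, limma's test on the reads worked back, called 5 of the 28, HIST2H2BE, HIST1H2AC and HIST1H4H lower and HIST1H1C and HIST1H1E higher, against 6.82% of all genes. At an unadjusted p under 0.05, 7 of the 28 differed (3 lower and 4 higher), against 19.5% of all genes. Of the 28 genes, 10 had groups that did not overlap, against 25.9% of all genes. Of these 10, 4 were lower and 6 higher, against 12.3% and 13.6% of all genes. In RNA from a whole culture, fewer cells that make a histone mRNA, such as cells in S phase, and less of it per cell cannot be told apart.

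The median log2 difference was -0.036 for the 21 replication-dependent genes and 0.07 for the 7 variant genes, against 0.0095 for all genes tested. The replication-dependent genes spread more widely, from -0.62 (HIST1H2AE) to 0.78 (HIST1H1E), than the variant genes, from -0.30 to 0.21. The median size of the difference, without its sign, was 0.17 for the replication-dependent genes, 0.081 for the variant genes and 0.11 for all genes. The replication-dependent genes also had lower levels, and no test was made of this difference in spread. The summed FPKM of the replication-dependent genes was 331 ± 7.36 in control and 338 ± 20.1 in PRMT1 KD cells (SD, n = 3 each), and that of the variant genes 624 ± 25.5 and 623 ± 21.9 FPKM. The groups overlapped for both sums. Without HIST1H1C, or the gene with the highest level in the class, the replication-dependent sum in PRMT1 KD cells was 93.8% of that in the control cells, and with it 102%.

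**Figure D3:**
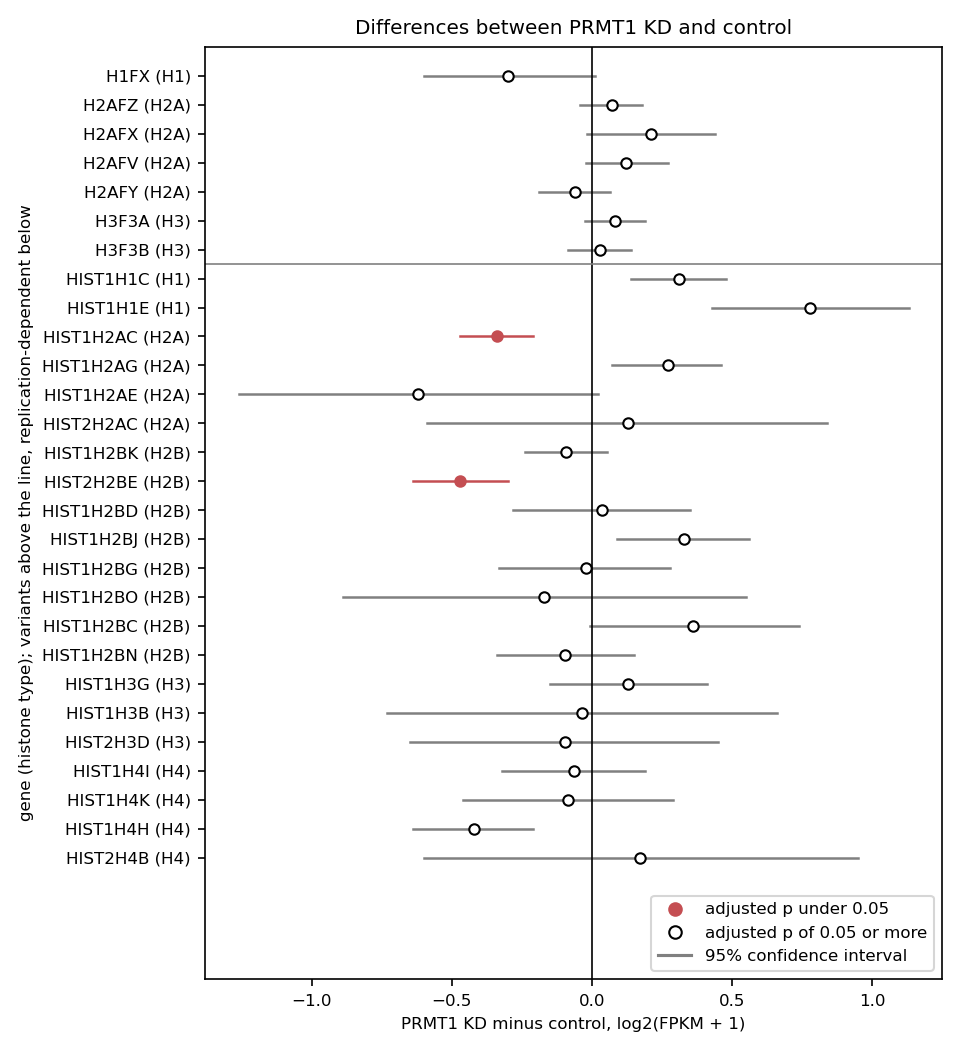
Log2 difference (PRMT1 KD minus control, log2(FPKM + 1) scale) with its 95% confidence interval for the 28 histone genes tested, with variant genes above the line. HIST2H2BE and HIST1H2AC, filled, had an adjusted p under 0.05, and the intervals of HIST1H1C, HIST1H1E, HIST1H2AG, HIST1H2BJ and HIST1H4H also left out 0 before adjustment.

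HIST2H2BE (ENSG00000184678, chr1:149884459-149886652, minus strand) encodes an H2B of the HIST2 cluster. It was 24.7, 22.2 and 24.2 FPKM in the control libraries and 15.5, 18.3 and 16.6 FPKM in the PRMT1 KD libraries. Every PRMT1 KD library lay under every control library, and the PRMT1 KD mean was 71.0% of the control mean. The log2 difference was -0.47 (SE 0.0725, 95% confidence interval -0.64 to -0.30, limma adjusted p = 0.0362), on a mean of 708.5 reads per library. HIST1H2AC (ENSG00000180573, chr6:26124145-26139116, plus strand) encodes an H2A of the HIST1 cluster. Its level was 28.0, 26.4 and 26.6 FPKM in the control libraries and 21.6, 19.9 and 22.0 FPKM in the PRMT1 KD libraries. The groups did not overlap here either, and the PRMT1 KD mean was 78.3% of the control mean. The log2 difference was -0.34 (SE 0.054, 95% confidence interval -0.47 to -0.21, limma adjusted p = 0.0386), on a mean of 641 reads. For each gene, permuting the libraries (exact test, two-sided) gave p = 0.1, the smallest that 3 libraries against 3 allow. Leaving out any single library ended both calls, with limma adjusted p of 0.0783 (without control replicate 3) to 0.159 (without control replicate 1) for HIST2H2BE and of 0.072 (without PRMT1 KD replicate 3) to 0.17 (without control replicate 1) for HIST1H2AC, while the log2 differences stayed between -0.53 and -0.42 and between -0.37 and -0.30. Of all 13585 genes, 13 to 94 were called with a library left out. With no filter on low values the limma adjusted p was 0.101 for HIST2H2BE and 0.0971 for HIST1H2AC, and without the mean-variance trend it was 0.0754 and 0.0787, so these settings ended both calls as well.

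Both genes stand head to head with another histone gene. HIST1H2AC and HIST1H2BC start 219 bases apart and HIST2H2AC and HIST2H2BE 323 bases apart, and the octamer windows shown above for HIST1H2AC and HIST2H2BE lie between the start sites and belong to both genes of the pair. HIST1H2BC, an H2B gene, was 1.45, 2.01 and 1.96 FPKM in the control libraries and 2.03, 2.50 and 3.38 FPKM in the PRMT1 KD libraries. Its values lay on the other side of control from those of HIST1H2AC (log2 difference 0.36, 95% confidence interval -0.0069 to 0.74, limma adjusted p = 0.263), on a mean of 29.17 reads. HIST2H2AC, an H2A gene, was 2.17, 3.34 and 2.48 FPKM in the control libraries and 2.02, 2.14 and 5.56 FPKM in the PRMT1 KD libraries. Only PRMT1 KD replicate 3 was above the control libraries (log2 difference 0.13, 95% confidence interval -0.59 to 0.84, limma adjusted p = 0.861). The difference within each pair was not tested.

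Among 11 such H2A and H2B pairs, both genes were tested in 4. In the pair HIST1H2AG and HIST1H2BJ, with 292 bases between the starts, the log2 differences were 0.27 (limma adjusted p = 0.146) and 0.33 (limma adjusted p = 0.142). In the pair HIST1H2AE and HIST1H2BG, with 283 bases between the starts, they were -0.62 (limma adjusted p = 0.27) and -0.021 (limma adjusted p = 0.953). Without PRMT1 KD replicate 1, that of HIST1H2AE was -0.31. Levels within a pair were often far apart, as in HIST1H2BK at 101 FPKM beside HIST1H2AH at 0.416 FPKM, and HIST1H2BO at 4.10 FPKM beside HIST1H2AM listed at 0. HIST1H2AM overlaps HIST1H3J on the same strand and shares 86.3% of its 50-base stretches with it. How reads on shared bases were counted is not given, so this 0 may not be a measured level.

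Of the 6 linker histone genes of the HIST1 cluster 2 were tested, HIST1H1C and HIST1H1E, and both had higher values in PRMT1 KD cells without passing the test. H1FX, the variant linker histone gene tested, had lower values and did not pass either. HIST1H1C was 89.1, 94.1 and 87.0 FPKM in the control libraries and 101, 113 and 122 FPKM in the PRMT1 KD libraries. The groups did not overlap (log2 difference 0.31, SE 0.0717, limma adjusted p = 0.0837), and voom on the reads gave an adjusted p of 0.0236. HIST1H1E, which encodes linker histone H1.4, was 1.92, 1.48 and 1.93 FPKM in the control libraries and 3.77, 2.95 and 4.70 FPKM in the PRMT1 KD libraries. This was the largest difference among the 28 genes, with a PRMT1 KD mean of 214% of the control mean (log2 difference 0.78, SE 0.148, limma adjusted p = 0.0517; voom adjusted p = 0.0347), on a mean of 33.17 reads. H1FX was 184, 183 and 167 FPKM in the control libraries and 167, 156 and 116 FPKM in the PRMT1 KD libraries. PRMT1 KD replicate 3 was the lowest, and the log2 difference was -0.30 (95% confidence interval -0.60 to 0.011, limma adjusted p = 0.27). Without that library it was -0.14. The share of the variant genes in the summed H1 FPKM in control cells was 66.9%, 65.7% and 65.2%, and in PRMT1 KD cells it was 61.4%, 57.2% and 47.9%. H1FX overlaps the antisense gene H1FX-AS1, and strand use in the counting is not given in the sources used here.

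For the other variant genes, the differences were small in size. H2AFZ was 220, 228 and 216 FPKM in control and 221, 234 and 242 FPKM in PRMT1 KD libraries, with overlapping groups (log2 difference 0.07, 95% confidence interval -0.044 to 0.18). H2AFX, whose protein is phosphorylated at DNA breaks, was 87.4, 89.5 and 73.0 FPKM in control and 102, 102 and 86.4 FPKM in PRMT1 KD libraries, with a log2 difference of 0.21 (95% confidence interval -0.017 to 0.44, limma adjusted p = 0.284). Its control replicate 3 and PRMT1 KD replicate 3 were each the lowest of their group. H3F3A was 58.5, 61.6 and 61.3 FPKM in control and 63.2, 62.4 and 66.5 FPKM in PRMT1 KD libraries, groups that did not overlap but lay close (log2 difference 0.081, 95% confidence interval -0.025 to 0.19). H3F3B (log2 difference 0.029, 95% confidence interval -0.086 to 0.14), H2AFV (0.12, 95% confidence interval -0.022 to 0.27) and H2AFY (-0.062, 95% confidence interval -0.19 to 0.066) had overlapping groups. Of the 7 variant genes, 0 had an unadjusted p under 0.05, against 19.5% of all genes, and 0 were called by voom, against 6.82%; with 7 genes, counts of 0 do not set them apart from the rest. For 5 of them, all but H1FX and H2AFX, the interval left out a log2 difference of 0.30 in either direction.

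**Figure D4:**
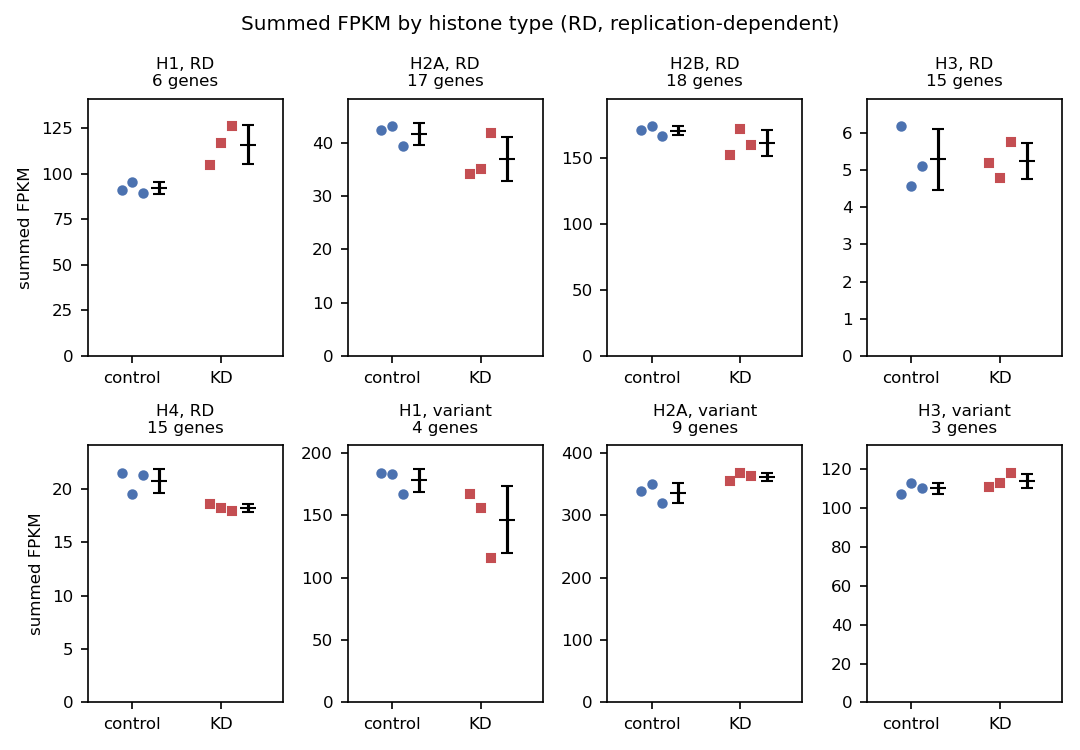
Summed FPKM of each histone type in each library, for replication-dependent (RD) and variant genes, with the mean and SD of 3 libraries beside the points and each axis starting at 0. The RD H1 sum was 92.1 in control and 116 FPKM in PRMT1 KD cells, the variant H1 sum 178 and 146 FPKM, and the H4 sum 20.8 and 18.2 FPKM.

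Summed by type, the groups did not overlap for replication-dependent H1 (92.1 ± 3.24 FPKM in control and 116 ± 10.7 FPKM in PRMT1 KD cells, SD, n = 3 each), variant H1 (178 ± 9.48 and 146 ± 26.7 FPKM), variant H2A (336 ± 15.7 and 362 ± 6.89 FPKM) and H4 (20.8 ± 1.08 and 18.2 ± 0.328 FPKM). They overlapped for replication-dependent H2A (41.7 ± 2.00 and 37.0 ± 4.19 FPKM), H2B (171 ± 3.30 and 161 ± 9.96 FPKM) and H3 (5.29 ± 0.817 and 5.25 ± 0.481 FPKM), and for variant H3 (110 ± 2.94 and 114 ± 3.61 FPKM). The sums were not tested. The replication-dependent H1 sum rests mainly on HIST1H1C and the variant H1 sum on H1FX. In the H4 sum, HIST1H4H was 3.15 ± 0.354 FPKM in control and 2.08 ± 0.045 FPKM in PRMT1 KD cells, and HIST1H4I 10.3 ± 1.31 and 9.84 ± 1.16 FPKM (SD, n = 3 each).

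H4 genes were at low levels. HIST1H4H was 3.32, 3.38 and 2.74 FPKM in the control libraries and 2.10, 2.12 and 2.03 FPKM in the PRMT1 KD libraries. All PRMT1 KD libraries were under the control libraries (log2 difference -0.42, SE 0.0898, limma adjusted p = 0.067; voom adjusted p = 0.048), on a mean of 90.5 reads. HIST1H4I, the H4 gene with the highest level, was 11.9, 9.54 and 9.63 FPKM in control and 9.92, 8.64 and 11 FPKM in PRMT1 KD libraries. Its groups overlapped (log2 difference -0.064, 95% confidence interval -0.32 to 0.19). HIST1H4K (log2 difference -0.087) has the same coding sequence as HIST1H4J, which was listed at 0, and HIST2H4B (0.17) the same as HIST2H4A. Reads on such pairs cannot be told apart, and their values are uncertain. HIST2H4B was 0.532, 0.450 and 2.10 FPKM in the control libraries, with control replicate 3 far above the others.

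Among the H2A genes, HIST1H2AG was 5.64, 6.48 and 5.16 FPKM in control and 7, 7.50 and 6.83 FPKM in PRMT1 KD libraries. The PRMT1 KD libraries were all higher (log2 difference 0.27, SE 0.0833, limma adjusted p = 0.146). HIST1H2AE was 4.39, 4.87 and 3.45 FPKM in control and 1.19, 2.73 and 3.74 FPKM in PRMT1 KD libraries. PRMT1 KD replicate 1 was the lowest, on 10 reads, and the groups overlapped.

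Among the H2B genes, HIST1H2BJ was 9.66, 12.3 and 10.3 FPKM in control and 12.6, 13.4 and 15.1 FPKM in PRMT1 KD libraries. The PRMT1 KD libraries were again higher (log2 difference 0.33, SE 0.10, limma adjusted p = 0.142). HIST1H2BK was 106, 104 and 101 FPKM in control and 97.3, 105 and 90.3 FPKM in PRMT1 KD libraries (log2 difference -0.091, 95% confidence interval -0.24 to 0.053). Of its 50-base stretches 74.1% also occur in another gene, and 61.4% occur in H2BFS, so its reads cannot all be placed with certainty. Few reads were placed on H2BFS, whose entries averaged 1.167 and 0 reads per library, against 610 for HIST1H2BK. HIST1H2BD, HIST1H2BG, HIST1H2BO and HIST1H2BN had overlapping groups and log2 differences of 0.035, -0.021, -0.17 and -0.095. HIST1H2BN overlaps HIST1H2AK and HIST1H2AL, and HIST1H2BD overlaps AL353759.1 and LARP1P1.

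The replication-dependent H3 genes tested were HIST1H3G, HIST1H3B and HIST2H3D, with 1.89, 1.67 and 1.25 FPKM on average. Their log2 differences were 0.13, -0.036 and -0.097, and all 3 had overlapping groups. HIST1H3B and HIST2H3D rested on means of 11 and 8.167 reads per library, and 80.4% of the 50-base stretches of HIST2H3D occur in another gene. For HIST2H2BE and HIST1H2AC this share was 8.11% and 0.421%.

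None of 20 genes tested for histone mRNA synthesis and processing passed the test, against 2.05% of all genes. SLBP, which binds the stem-loop shown above, was 55.2, 57.8 and 53.8 FPKM in control and 53.4, 58.8 and 58.2 FPKM in PRMT1 KD libraries (log2 difference 0.029, 95% confidence interval -0.097 to 0.16). NPAT, the coactivator of histone gene transcription in S phase, was 4.03 ± 0.349 FPKM in control and 5.05 ± 0.761 FPKM in PRMT1 KD cells (SD, n = 3 each, log2 difference 0.26, limma adjusted p = 0.235). In this list 1 gene was lower and 3 were higher at an unadjusted p under 0.05, against 19.5% of all genes in either direction, and voom called 1, against 6.82%. The median log2 difference was 0.026. These shares were near those of all genes.

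Histone chaperones, which carry histones to and from DNA, likewise held 0 called genes of 32 tested by limma, against 2.05% of all genes. In a list this short, a count of 0 does not set it apart from the rest. At an unadjusted p under 0.05, 5 were higher and 0 lower (19.5% of all genes differed), and voom called 4, all higher (6.82% of all genes). The limma count of 0 was 3 at a mean FPKM of at least 5, 3 after rescaling to TPM and 1 after quantile normalization. Of the chaperones of newly made H3 and H4, CHAF1A had a log2 difference of 0.14, CHAF1B 0.061, ASF1A 0.15 and ASF1B -0.038. Of those that deposit H3.3, HIRA had 0.12, DAXX -0.017 and ATRX 0.23. The median of the list was 0.083. CENPA, the H3 variant of centromeres, which the naming rule leaves out, was 17.7 ± 0.847 FPKM in control and 19.5 ± 0.852 FPKM in PRMT1 KD cells (SD, n = 3 each, limma adjusted p = 0.257).

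S phase genes had mostly higher values. Of 24 tested, 3 passed the test as higher and none as lower (12.5% called, against 2.05% of all genes). A positive log2 difference was found for 23 of 24, against 7143 of the 13585 genes tested. The median was 0.14, against 0.0095 for all genes. RRM2, a subunit of ribonucleotide reductase, rose from 28.4 ± 1.09 to 36.5 ± 1.88 FPKM (SD, n = 3 each, log2 difference 0.35, limma adjusted p = 0.0377). CCNA2, cyclin A2 of S and G2 phase, rose from 49.5 ± 1.29 to 60.5 ± 2.39 FPKM (log2 difference 0.28, limma adjusted p = 0.0404), and MKI67, the Ki-67 proliferation antigen, from 25.7 ± 1.44 to 31.8 ± 0.892 FPKM (log2 difference 0.29, limma adjusted p = 0.0484). PCNA, the sliding clamp of DNA polymerases, was 121 ± 7.70 FPKM in control and 139 ± 8.67 FPKM in PRMT1 KD cells (log2 difference 0.19, limma adjusted p = 0.169). As with the histone genes, 0 of the 24 were called with any single library left out. Their part in the histone values was not tested.

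**Figure D5:**
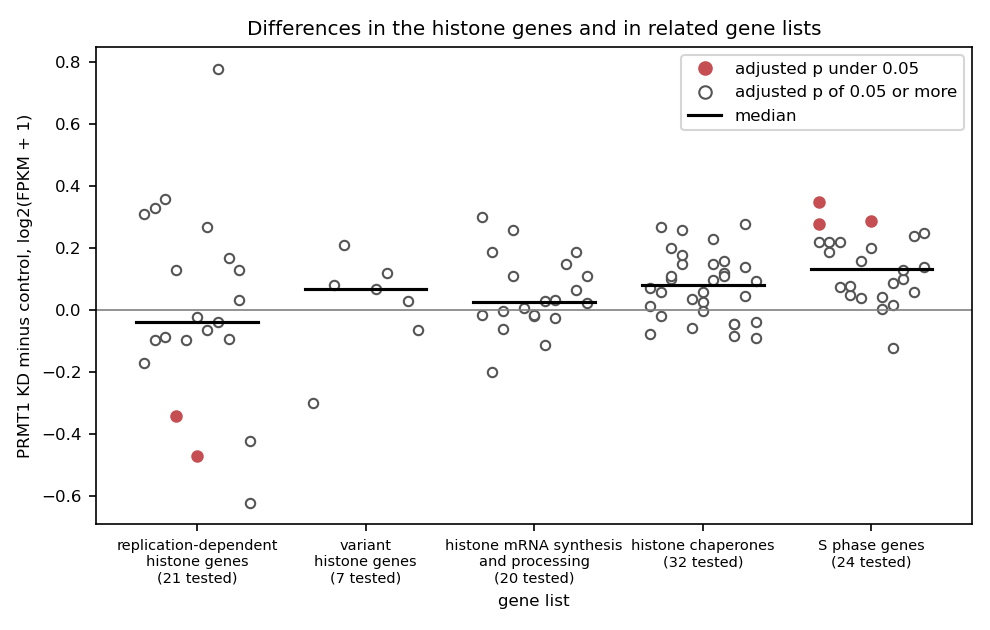
Log2 difference (PRMT1 KD minus control, log2(FPKM + 1) scale) of each gene tested, by gene list; filled points had an adjusted p under 0.05 and black lines are medians. The replication-dependent histone genes spread from -0.62 to 0.78 around a median of -0.036, and 23 of the 24 S phase genes lay above 0.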

How the data were processed

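RNA of 3 control and 3 PRMT1 KD samples of MM.1S cells was sequenced. The authors deposited FPKM per gene and library with gene lengths. The submitters' processing notes name featureCounts 1.5.0-p3 and hg38; the aligner, the annotation, strand and the RNA selection are not given in the sources used here. FPKM multiplied by gene length gave whole multiples of 1 step per library for 100% of the values above 0 (tolerance 0.01), from which reads were worked back.

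Sample labels gave the groups and replicate numbers. The test was limma 3.58.1 (R 4.3.3) with a mean-variance trend in its empirical Bayes step, two-sided, with Benjamini-Hochberg adjustment over all 13585 genes whose mean FPKM was at least 1, on the log2(FPKM + 1) scale. The pseudocount of 1 understates changes of low genes. The fit was tested on simulated data. The count of genes called was worked out under 17 alternatives, among them voom on the reads and 6 fits with a single library left out. The count of replication-dependent genes called had 19. Members and gene lists were chosen with earlier results of these data known. Named are PRMT1, every variant and replication-dependent gene tested, the 3 genes on each side of the FPKM threshold, list genes with an adjusted p under 0.05 and 14 list genes chosen by name; other genes were named after their values were seen. Stem-loops and poly(A) signals were searched in GENCODE 29 transcripts (all 87 genes had the same coordinates there), and promoter motifs in RefSeq sequence. In the histone mRNA list, 20 of 21 symbols were found.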

Additional observations from a re-analysis of the deposited data

How the results depend on the processing

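The replicate numbers were not taken to pair the libraries, since the correlations between libraries of 1 number, as deviations from the group means, were 0.02, 0.0631 and 0.101. In the fit with a replicate block, 204 genes were called, among them 2 histone genes, HIST1H2AC (adjusted p = 0.0489) and HIST1H1E (0.0475), while HIST2H2BE was at 0.0628; no call on a variant gene or on the chaperone and histone mRNA lists changed, and 2 S phase genes were called.

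The number of histone genes called, 2 as reported, was 0 with no filter on low values or without the trend, 4 with a minimum of 10 reads or after rescaling to TPM, 5 with voom and 7 at unadjusted p, and 0 with any library left out. The number of all genes called was 35 with no filter, 473 at a mean FPKM of at least 5, 43 without the trend, 927 with voom, 2655 at unadjusted p and 13 to 94 with a library left out. The number of S phase genes called was 0 with no filter or without the trend, 1 after median scaling, 5 with voom, 11 at unadjusted p and 0 with any library left out. The median log2 difference of the variant genes was -0.022 with no filter, a setting that adds genes near 0, and 0.041 to 0.09 with a library left out. Under all alternatives run, 0 variant genes were called, and the median of the replication-dependent genes stayed between -0.048 and 0.014, the upper value with a library left out.

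The log2 difference changed sign for genes whose groups overlapped. For HIST1H3B it was 0.03 with a pseudocount of 0.1, 0.017 after rescaling to TPM, 0.037 with voom, and -0.39 to 0.14 with a library left out. With a library left out it ranged from -0.077 to 0.19 for HIST1H2BD, -0.14 to 0.029 for HIST1H4I, -0.17 to 0.092 for HIST1H2BG, -0.18 to 0.059 for HIST1H4K, -0.022 to 0.53 for HIST2H4B, -0.45 to 0.17 for HIST1H2BO, -0.36 to 0.077 for HIST2H3D and -0.24 to 0.32 for HIST2H2AC. The causes were not tested. HIST1H1E passed the test with a pseudocount of 0.1 (adjusted p = 0.0497), a minimum of 10 reads (0.0359) and TPM (0.0461), and HIST1H1C at a mean FPKM of at least 5 (0.0416), after quantile normalization (0.0401) and TPM (0.043), and HIST1H4H, which was lower, with a minimum of 10 reads (0.0485). With voom all 3 passed. Depth limits the low genes: 1 of the 28 tested averaged under 10 reads, and the 59 genes under 1 FPKM were not tested.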
